A study of Mus musculus with 6 samples.

Results

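The genes described here supply cells with antioxidant capacity, with NADPH and with iron handling. They are a list of 40 mouse genes, chosen by symbol with earlier results of these data known. The list holds the stress sensor pair Nfe2l2 and Keap1, the heme and quinone enzymes, and the glutathione, thioredoxin and peroxiredoxin systems. It also holds catalase and superoxide dismutase, the NADPH-producing enzymes, the iron transporters and ferritins, and Selenbp1. All 40 had a probe whose transcript accession belonged to the gene, and all 40 were among the 29752 genes or unnamed transcripts tested. The brightest tested probe stood for each gene.

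RNA came from BV2 cells, an immortalized mouse line used as a model of microglia, the macrophages of the brain. Cells on poly-L-lysine received recombinant mouse IL-4 at 10 ng/ml for 24 hr (3 samples) or PBS for 24 hr (3 samples), and 1 single-colour Agilent array was hybridised per sample. The study's title places the work in M2 polarization of microglia, the alternative activation state that IL-4 drives. The design text calls the control untreated and a description field mentions human blood. The PBS labels were used, and the mention of blood was not. The labels do not say whether samples of a group were separate cultures, so the p-values speak only of the spread among these samples, which could be technical.

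Between 87.9% and 98.0% of 39429 probes were well above background per array, and no spot was saturated. Their scan records place all IL-4 samples on slide 1 together with PBS replicate 1, while the other controls, replicates 2 and 3, were on slide 2. Each difference is therefore given over all 6 arrays and again with PBS replicate 1 as the sole control, called the difference within slide 1. All 10 microglia and macrophage markers were well above background on all arrays. Of these, Aif1, Tyrobp and Lyz2 fell with IL-4, beside 2.54% of all tested genes called lower. They differed by -0.49, -0.54 and -0.55 within slide 1. The others were not called. Csf1r, Ptprc, Fcgr3 and Spi1 had log2 fold changes of -0.47, -0.42, -0.41 and -0.53. Within slide 1 these had -0.25, -0.21, -0.29 and -0.20. Cx3cr1 had -0.19 over all arrays and -0.27 within slide 1. Itgam and Adgre1 stood at 0.02 and -0.02 over all arrays and 0.05 and 0.28 within slide 1. The summed level of the 10 was 32.6 to 35.4 with IL-4 and 35.7 to 46.9 with PBS, in multiples of the 75th percentile of an array. Of 25 markers of astrocytes, neurons, oligodendrocytes, erythroid cells and fibroblasts, 21 were tested and 0 were called (limma). The summed levels of the neuron and oligodendrocyte lists were 2.07 to 2.45 and 3.43 to 3.85 with IL-4, against 1.63 to 1.90 and 1.89 to 3.28 with PBS. In these lists and in the microglia list, the PBS sum nearest to the IL-4 arrays was that of PBS replicate 1, on the shared slide. The erythroid and fibroblast lists overlapped between the groups, at 0.919 to 1.35 and 0.297 to 0.395 over all arrays, and the astrocyte list lacked Aqp4 on PBS replicate 3 (9.38 to 17.6 with IL-4 and 0.294 to 14.5 with PBS). The part of these markers in the results was not tested, and in bulk RNA fewer cells of a type cannot be told apart from less RNA per cell.

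Oxidants are removed in cells by small proteins and peptides that carry reactive sulfur or selenium. Thioredoxin and glutathione pass electrons to peroxidases and are themselves reduced with NADPH, most of which comes from the pentose phosphate pathway. The transcription factor NRF2, encoded by Nfe2l2 and held in check by KEAP1, switches on many of these genes through the antioxidant response element. Macrophages also take up, store and export iron, and free iron feeds the production of radicals.

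Of the 40 genes 3 fell with IL-4, and none rose. They were Txnrd2, the mitochondrial thioredoxin reductase, Prdx2, a cytosolic peroxiredoxin, and Selenbp1, a selenium-binding protein. A gene was called at an adjusted p under 0.05 (limma, Benjamini-Hochberg over all genes tested), and 2.54% of all tested genes were called lower and 0.807% higher. The log2 fold change lay below 0 for 32 of the 40 genes, beside 56.5% of all tested genes, and its median was -0.16, beside -0.05. Within slide 1 the difference lay below 0 for 22 of the 40, beside 48.8%, and its median was -0.01, beside 0.01. With slide as a block 0 of the 40 were called, beside 0.0303% of all genes. At an unadjusted p under 0.05 that block gave 3 lower and 2 higher, beside 5.82% and 4.39% of all genes. Because the list was chosen with earlier results known, these counts are a description and not a test of the list.

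The 3 calls were lost when any array other than PBS replicate 1 was left out, and also with no filter on dim probes. With normexp background correction 10 of the 40 were called: the same 3 genes, G6pdx, Gclc, Gpx1, Nfe2l2, Slc11a1 and Slc40a1 lower, and Srxn1 higher, beside 6.95% of all genes lower and 6.81% higher. When PBS replicate 1 was left out, 18 of the 40 genes were called, 16 lower and 2 higher, beside 23% of all genes lower and 19.5% higher. All remaining controls then lie on slide 2 and all IL-4 arrays on slide 1, so that slide and treatment cannot be told apart in that comparison. PBS replicate 1 had the lowest PBS signal for 33 of the 40 genes, which was so for 50.3% of all tested genes, and the highest for 2, beside 32.3%. The median difference between PBS replicate 1 and the mean of PBS replicates 2 and 3 was -0.29, beside -0.08 over all tested genes. IL-4 and PBS arrays did not overlap for 15 of the 40 genes. Of these, 12 were lower with IL-4, beside 19.8% of all genes, and 3 were higher, beside 18.7%. Within slide 1 all IL-4 arrays lay below PBS replicate 1 for 13 genes, beside 25.5% of all genes, and above it for 12, beside 30.5%.

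**Figure D1:**
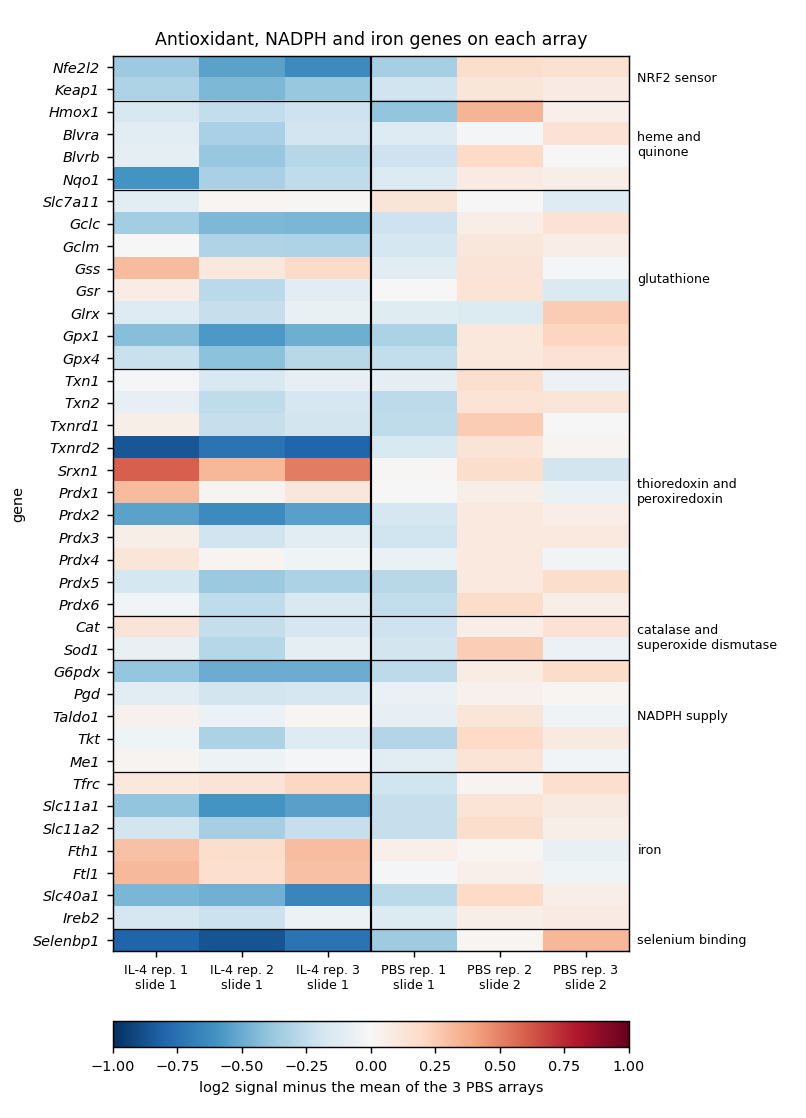
Heat map of the log2 signal of each of the 40 genes (rows, grouped by role) on each array (columns), as the difference from the mean of the 3 PBS arrays. Blue is lower and red higher. Txnrd2, Prdx2 and Selenbp1 are blue on all 3 IL-4 arrays, and PBS replicate 1 is the lowest PBS array in 33 of the 40 rows.

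**Figure D2:**
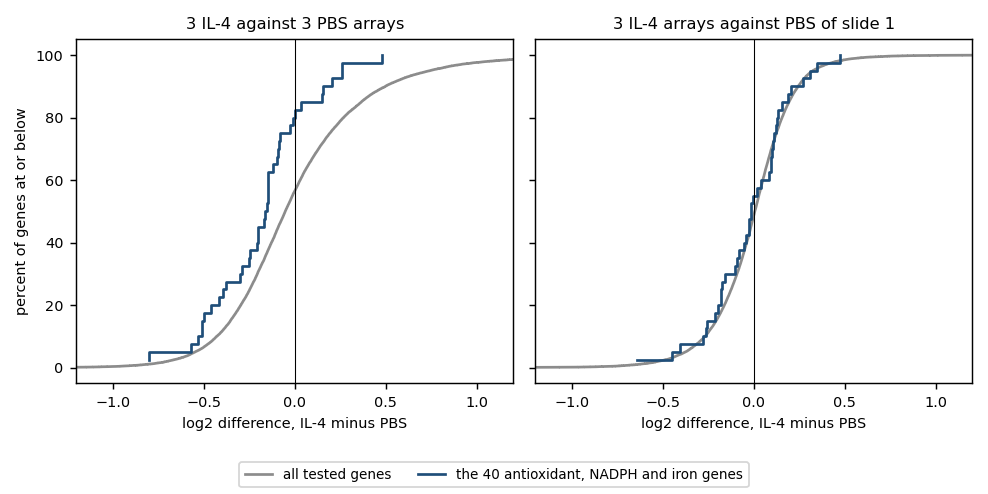
Cumulative share of genes (vertical axis, percent) at or below a given log2 difference between IL-4 and PBS (horizontal axis), over all arrays on the left and within slide 1 on the right. On the left the curve of the 40 genes lies to the left of the curve of all tested genes (medians -0.16 and -0.05). On the right the curves lie close together (medians -0.01 and 0.01).

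The thioredoxin and peroxiredoxin genes held 2 of the 3 genes that fell, Txnrd2 and Prdx2, and Srxn1, the gene with the largest difference upwards on the list. Of the 11 genes of this role, 8 had log2 fold changes below 0 over all arrays, and 3 had differences below 0 within slide 1. Txnrd2 encodes the selenoenzyme that reduces thioredoxin in mitochondria. Its log2 signal, given like all signals below as the distance from the array's 75th percentile, was 1.02, 1.14 and 1.09 on IL-4 replicates 1, 2 and 3 and 1.72, 2.01 and 1.90 on PBS replicates 1, 2 and 3. All IL-4 arrays lay below all PBS arrays, with PBS replicate 1 the lowest of the controls. Txnrd2 fell 1.74-fold, with a log2 fold change of -0.80 ± 0.11 (SE) and an adjusted p of 0.026 (limma). Within slide 1 the log2 difference was -0.64 (95% confidence interval -0.91 to -0.37, with slide as a block and, like all intervals here, not adjusted for the number of genes), with an adjusted p of 0.16. Across the alternatives tried the adjusted p of Txnrd2 ran from 8.6e-04 to 0.27. The other members of the system showed smaller values. Txnrd1, the cytosolic reductase, had a log2 fold change of -0.12 ± 0.15, and it turned to 0.13 within slide 1. Txn1 and Txn2, the cytosolic and mitochondrial thioredoxins, had -0.08 ± 0.11 and -0.17 ± 0.13, and both also changed sign within slide 1, at 0.02 and 0.09.

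Prdx2 was the peroxiredoxin that fell. Peroxiredoxins reduce hydrogen peroxide with a reactive cysteine that thioredoxin restores. The log2 signal of Prdx2 was 2.71, 2.61 and 2.70 with IL-4 and 3.08, 3.35 and 3.32 with PBS, in the order of the replicates. The groups did not overlap, and PBS replicate 1 was again the control nearest to the IL-4 arrays. Prdx2 fell 1.49-fold, with a log2 fold change of -0.57 ± 0.11 and an adjusted p of 0.043 (limma). The difference within slide 1 was -0.41 (95% confidence interval -0.66 to -0.15), with an adjusted p of 0.28. Over the alternatives its adjusted p ran from 0.0019 to 0.38. The other 5 peroxiredoxins did not pass. Prdx1, cytosolic like Prdx2, had a log2 fold change of 0.16 ± 0.11. Prdx3, the mitochondrial form, had -0.08 ± 0.13, and Prdx4, the form of the endoplasmic reticulum, 0.03 ± 0.10. Prdx5 had -0.29 ± 0.14 and Prdx6, which uses glutathione in place of thioredoxin, -0.15 ± 0.14. Within slide 1, Prdx3 and Prdx6 stood on the other side of 0, at 0.11 and 0.10, and Prdx5 at -0.02. Prdx1 and Prdx4 had 0.15 and 0.10 there.

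Srxn1 encodes sulfiredoxin, which repairs peroxiredoxins whose cysteine has been over-oxidized. It is named after its values were seen, since it had the largest log2 difference upwards. Its log2 signal was 6.24, 5.98 and 6.15 with IL-4 and 5.65, 5.82 and 5.46 with PBS. The groups did not overlap, and PBS replicate 1 lay between the other controls. The log2 fold change was 0.48 ± 0.13 and did not pass (adjusted p = 0.063, limma). The difference within slide 1 was of like size at 0.47 (95% confidence interval 0.06 to 0.89). Its adjusted p was 0.43 (limma with slide as a block).

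Selenbp1, a selenium-binding protein that oxidizes methanethiol, had the largest log2 fall on the list by a narrow margin. Its log2 signal was 0.22, 0.15 and 0.28 with IL-4 and 0.67, 1.04 and 1.35 with PBS, so that the groups did not overlap and the controls spread widely. Selenbp1 fell 1.74-fold, with a log2 fold change of -0.80 ± 0.17 and an adjusted p of 0.049 (limma). Within slide 1 the difference was -0.45 (95% confidence interval -0.80 to -0.10), and its adjusted p was 0.36. Over the alternatives the adjusted p ran from 0.0013 to 0.36.

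A ratio of family members on the same array keeps its value when a whole array is scaled by a single factor. Such ratios were compared for 6 pairs, chosen after the values were seen. The ratio of Txnrd2 to Txnrd1 differed by -0.68 on the log2 scale between IL-4 and PBS and that of Prdx2 to Prdx1 by -0.73, and by -0.77 and -0.56 within slide 1. The groups did not overlap in either ratio. In an exact permutation test over the arrays (two-sided) each had p = 0.10, the smallest that 3 arrays against 3 can give (0.15 adjusted over the 6 ratios). Because the pairs were picked with values known, and the test ignores the slides, these p-values only describe the arrays. The share of other gene pairs without overlap was not computed. The ratios of Gpx1 to Gpx4 and of Gclc to Gclm differed by -0.19 and -0.22, also without overlap (exact p = 0.10 each). The ratio of Txn2 to Txn1 differed by -0.09 (exact p = 0.60), and that of the ferritin chains Ftl1 to Fth1 by 0.0013 (exact p = 1).

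**Figure D3:**
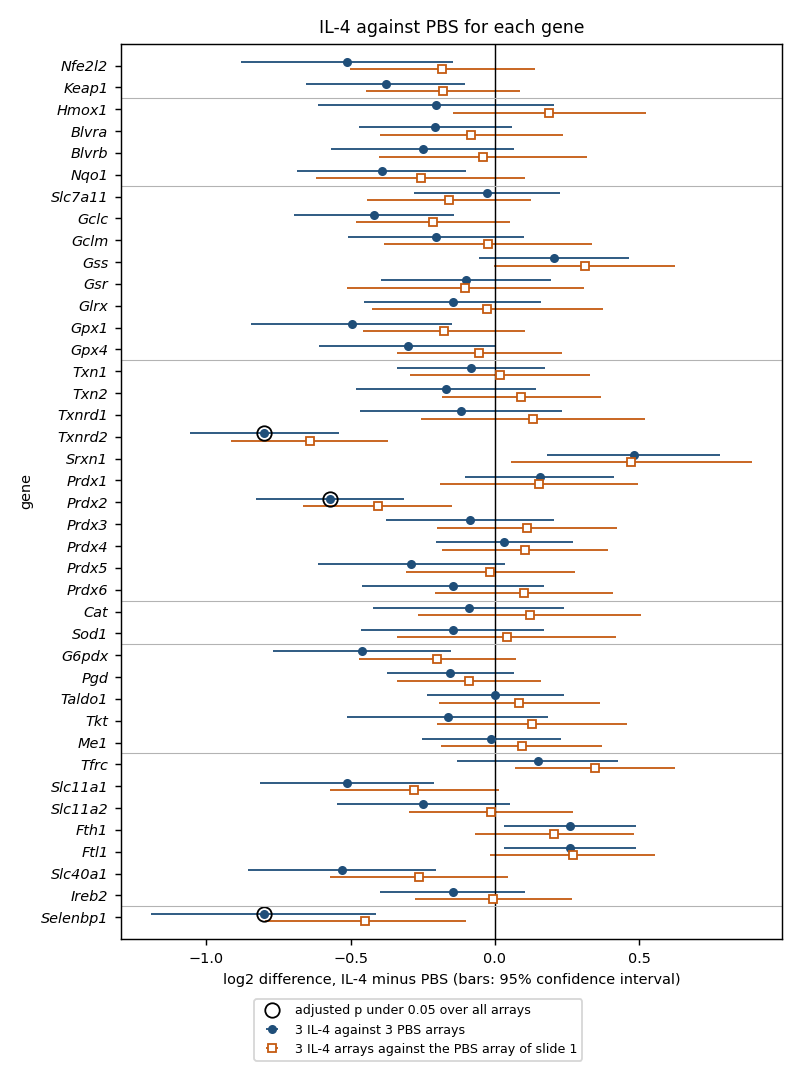
Log2 difference between IL-4 and PBS (horizontal axis) for each of the 40 genes (vertical axis, grouped by role) with 95% confidence intervals. Filled circles use all 6 arrays, and open squares take PBS replicate 1 as the sole control, from the fit with slide as a block. The ringed genes Txnrd2, Prdx2 and Selenbp1 passed over all arrays, and their intervals lie below 0 in both comparisons.

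For the 3 genes that fell, sequence context can be set beside that of genes below with a match to the antioxidant response element. The stretches of 250 bases before annotated starts of these 3 genes are shown. They are taken from RefSeq (build GRCm38.p6), read 5′ to 3′ on the strand of the gene, and all 3 genes lie on the plus strand. A script searched the window from 250 bases before to 50 after each start, on both strands, for TGACNNNGC, the core of the antioxidant response element, and for the palindromic site of STAT6, the factor downstream of IL-4, in its spacing of 4 bases between TTC and GAA. Neither motif occurs in these 3 windows. The stretch of Prdx2 has a GC content of 69.2% and that of Txnrd2 65.6%, whereas that of Selenbp1 has 51.6%.
Txnrd2 (chr16:18426167-18426416): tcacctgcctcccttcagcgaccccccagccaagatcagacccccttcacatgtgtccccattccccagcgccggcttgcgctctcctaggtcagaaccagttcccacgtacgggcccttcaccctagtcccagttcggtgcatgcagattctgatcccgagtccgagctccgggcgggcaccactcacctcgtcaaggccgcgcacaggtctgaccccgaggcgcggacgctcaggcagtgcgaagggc
Prdx2 (chr8:84969372-84969621): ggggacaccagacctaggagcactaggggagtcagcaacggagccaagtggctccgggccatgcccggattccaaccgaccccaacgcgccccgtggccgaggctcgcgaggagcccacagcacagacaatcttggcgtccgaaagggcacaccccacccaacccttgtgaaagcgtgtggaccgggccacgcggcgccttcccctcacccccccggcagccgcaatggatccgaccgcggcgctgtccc
Selenbp1 (chr3:94932833-94933082): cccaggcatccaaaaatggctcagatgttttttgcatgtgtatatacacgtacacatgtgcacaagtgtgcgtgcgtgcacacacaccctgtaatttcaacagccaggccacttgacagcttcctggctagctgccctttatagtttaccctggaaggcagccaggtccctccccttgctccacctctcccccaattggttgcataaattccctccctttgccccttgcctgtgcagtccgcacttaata

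Neither gene of the sensor pair passed. Nfe2l2 encodes NRF2, and its log2 signal was 3.90, 3.74 and 3.63 with IL-4 and 3.94, 4.44 and 4.42 with PBS. The groups did not overlap, but PBS replicate 1 stood only just above the highest IL-4 array. The log2 fold change of Nfe2l2 was -0.51 ± 0.16 (adjusted p = 0.075, limma), and the difference within slide 1 was -0.18. Keap1, the adaptor that delivers NRF2 for degradation, had log2 signals of -1.26, -1.40 and -1.34 with IL-4 and -1.15, -0.83 and -0.87 with PBS. It showed the same layout of arrays, with a log2 fold change of -0.38 ± 0.12 (adjusted p = 0.077, limma) and a difference within slide 1 of -0.18. Nfe2l2 was called lower with normexp correction, and without PBS replicate 1 both genes were called lower, at adjusted p = 0.0037 for Nfe2l2 and 0.0066 for Keap1. Over all alternatives their adjusted p-values reached 0.75 and 0.69.

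The core of the antioxidant response element was found near an annotated start of 10 of the 34 listed genes that matched the RefSeq promoter table. Of all 27025 genes in that table, 14% held it in at least 1 window of 300 bases, and 12.4% of all windows did. Gclc, Gsr, Hmox1, Prdx6, Slc11a2 and Slc40a1 were not matched. The 10 matches are shown on the strand of the gene with the matching bases in capitals, as TGACNNNGC or its reverse complement. They are shown as a sequence feature that these 10 genes share, and a match is a description of letters, not of binding. The match lies before the start in 7 of the genes, after it in Srxn1 and Pgd, and across it in Me1.
Nfe2l2 (chr2:75704879-75704913, minus strand): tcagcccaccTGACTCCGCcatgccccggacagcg
Blvra (chr2:127070592-127070632, plus strand): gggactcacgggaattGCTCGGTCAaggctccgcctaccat
Srxn1 (chr2:152105544-152105568, plus strand): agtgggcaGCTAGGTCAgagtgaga
Gclm (chr3:122245407-122245447, plus strand): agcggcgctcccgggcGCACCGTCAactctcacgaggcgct
Prdx1 (chr4:116685450-116685490, plus strand): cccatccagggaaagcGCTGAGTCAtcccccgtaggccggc
Pgd (chr4:149166063-149166087, minus strand): ttcagagcTGACATTGCactgatcg
Me1 (chr9:86695904-86695928, minus strand): tgccgccgTGACTCAGCgcttctcg
Txnrd1 (chr10:82859098-82859138, plus strand): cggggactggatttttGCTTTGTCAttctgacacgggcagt
Sod1 (chr16:90220690-90220730, plus strand): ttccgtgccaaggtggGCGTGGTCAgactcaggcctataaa
G6pdx (chrX:74428913-74428953, minus strand): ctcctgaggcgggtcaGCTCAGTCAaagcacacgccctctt
The 10 genes with a motif match had a median log2 fold change of -0.15, and the 24 other genes of the promoter table -0.16. Within slide 1 the medians were 0.01 and -0.01. None of the 3 genes that fell was among the 10, but neither were most of the 34 genes searched. The 24 lack a match only in the windows of 300 bases, and they include Nqo1, a classical NRF2 target. The split therefore does not separate NRF2 targets from other genes. The STAT6 spacing occurred near 2 of the 34 genes, Pgd and Blvrb, and in 8% of all genes of the table.

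**Figure D4:**
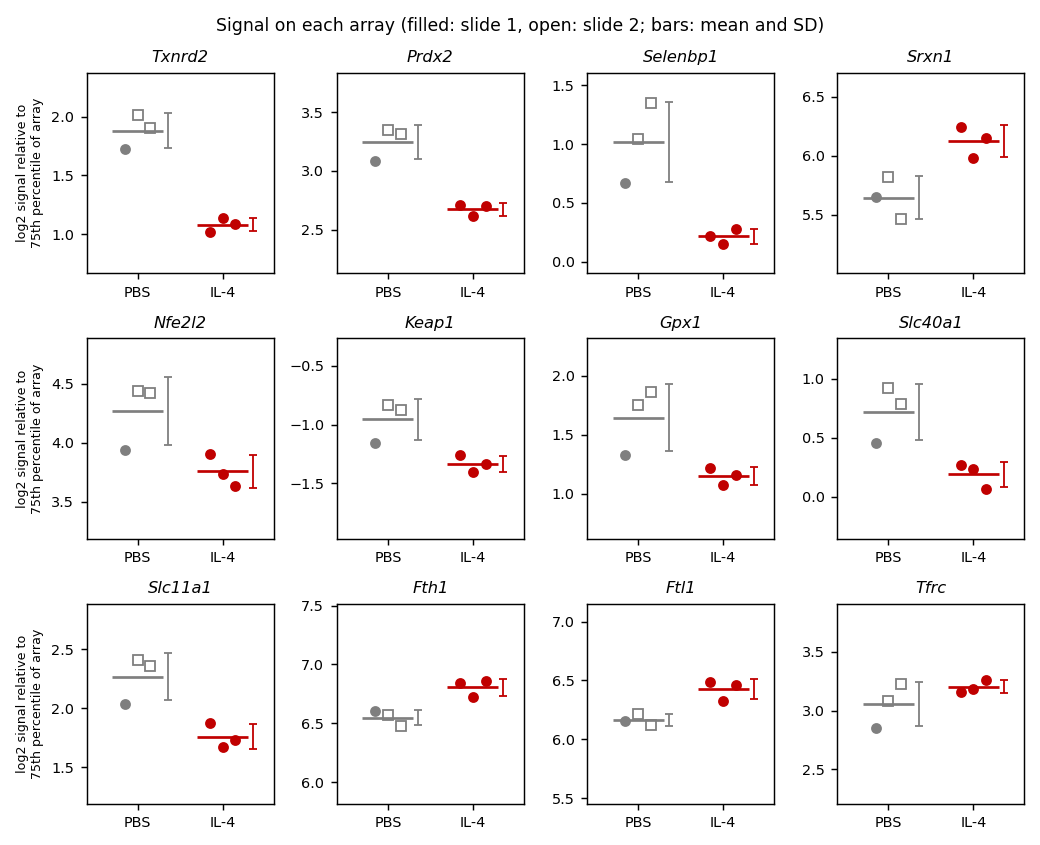
Log2 signal, as the distance from the array's 75th percentile (vertical axis), for 12 genes, with PBS in grey and IL-4 in red. Filled points lie on slide 1 and open points on slide 2, the horizontal line is the mean of 3 arrays and the bar its SD. For Txnrd2, Prdx2, Selenbp1, Nfe2l2, Keap1, Gpx1, Slc40a1 and Slc11a1 all IL-4 points lie below all PBS points, and the PBS array of slide 1 is the control nearest to them.

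Among the 4 genes for heme and quinone breakdown none passed, although all had log2 fold changes below 0. Hmox1, heme oxygenase and a much used readout of NRF2, had log2 signals of 2.52, 2.43 and 2.47 with IL-4 and 2.29, 3.02 and 2.73 with PBS. The IL-4 arrays lay close together, above PBS replicate 1 and below PBS replicates 2 and 3. The controls spread widely, and the groups overlapped. The log2 fold change was -0.20 ± 0.18 over all arrays and 0.19 within slide 1, and a second, dimmer probe of Hmox1 gave 0.16 ± 0.11 and 0.22. Without PBS replicate 1 Hmox1 was called lower (adjusted p = 0.027, limma), while over the alternatives its adjusted p reached 0.92. Blvra and Blvrb, the biliverdin reductases, had -0.21 ± 0.12 and -0.25 ± 0.14, and -0.08 and -0.04 within slide 1. Nqo1, a quinone reductase and classical NRF2 target, was dim, and it was well above background on 5 of the 6 arrays. Its log2 fold change was -0.39 ± 0.13 (adjusted p = 0.080, limma) and -0.26 within slide 1.

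The glutathione genes gave no call either, with log2 fold changes from -0.50 to 0.21. Gpx1, the cytosolic glutathione peroxidase, had the lowest at -0.50 ± 0.15 (adjusted p = 0.072, limma). Gclc, the catalytic subunit of the enzyme that limits glutathione synthesis, followed with -0.42 ± 0.12 (adjusted p = 0.067, limma). For both genes all IL-4 arrays lay below all PBS arrays, and within slide 1 the differences were -0.18 and -0.21. Gclm, the modifier subunit, had -0.20 ± 0.13, and Gpx4, which reduces lipid peroxides and so opposes ferroptosis, -0.30 ± 0.13. Within slide 1 these 2 genes had -0.03 and -0.05. The glutathione reductase Gsr and the glutaredoxin Glrx had -0.10 ± 0.13 and -0.15 ± 0.13, and -0.10 and -0.03 within slide 1. Slc7a11, which imports cystine for glutathione synthesis, had -0.03 ± 0.11 over all arrays and -0.16 within slide 1. Its value was turned to 0.02 by scaling on probes that every array measured above background, as well as in the deposited table. Gss, which completes glutathione, was alone of the 8 above 0, at 0.21 ± 0.11 over all arrays and 0.31 within slide 1.

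Catalase and superoxide dismutase stood near 0. Cat, which splits hydrogen peroxide in peroxisomes, had a log2 fold change of -0.09 ± 0.14. Sod1, the cytosolic superoxide dismutase, had -0.15 ± 0.14. Both turned positive within slide 1, at 0.12 and 0.04. The 95% confidence intervals over all arrays were -0.42 to 0.24 for Cat and -0.46 to 0.17 for Sod1.

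Of the 5 enzymes around NADPH none passed. G6pdx, which opens the pentose phosphate pathway and makes NADPH, had a log2 fold change of -0.46 ± 0.13 (adjusted p = 0.068, limma). Its IL-4 arrays lay below its PBS arrays, and within slide 1 the difference was -0.20. Pgd, the next NADPH-producing step, had -0.15 ± 0.09, with -0.09 within slide 1, and likewise no overlap between the groups. The enzymes of the non-oxidative branch, Taldo1 and Tkt, had 0.00067 ± 0.10 and -0.16 ± 0.15, and Me1, the malic enzyme, -0.01 ± 0.10. The sign of Taldo1 turned with quantile normalization, median scaling, normexp correction and the deposited table, and that of Tkt and Me1 within slide 1 (0.13 and 0.09). Taldo1 had 0.08 within slide 1.

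Of the 7 iron genes 4 had log2 fold changes below 0 and 3 above, and none was called. Slc40a1 encodes ferroportin, the exporter of cellular iron, and its log2 signal was 0.27, 0.24 and 0.07 with IL-4 and 0.45, 0.92 and 0.79 with PBS. Slc11a1, or NRAMP1, which moves divalent metals across the phagosome membrane, had 1.88, 1.67 and 1.73 with IL-4 and 2.04, 2.41 and 2.36 with PBS. For both, all IL-4 arrays were below all PBS arrays, and PBS replicate 1 was the lowest control. The log2 fold change of Slc40a1 was -0.53 ± 0.14 (adjusted p = 0.062, limma) and that of Slc11a1 -0.51 ± 0.13 (adjusted p = 0.059, limma). Within slide 1 they differed by -0.26 and -0.28. Slc11a1 was called lower with quantile normalization, the deposited table, normexp correction, the strict filter on dim probes and without PBS replicate 1. Its adjusted p over the alternatives ran from 0.0035 to 0.57.

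The ferritin chains and the transferrin receptor lay above 0, with the exception of Ftl1 under quantile normalization and with the mean of its probes. Fth1, the heavy chain of the iron store ferritin, had log2 signals of 6.84, 6.72 and 6.86 with IL-4 and 6.60, 6.57 and 6.47 with PBS, all IL-4 arrays above all PBS arrays. Its log2 fold change was 0.26 ± 0.10 (adjusted p = 0.11, limma), and 0.21 within slide 1. Ftl1, the light chain, had 0.26 ± 0.10 and 0.27 within slide 1, but -0.0007 with quantile normalization, and its dimmer probe had -0.27 ± 0.15. Tfrc, the receptor that takes up transferrin iron, had log2 signals of 3.16, 3.18 and 3.26 with IL-4 and 2.85, 3.08 and 3.22 with PBS. The groups overlapped, with a log2 fold change of 0.15 ± 0.12 over all arrays. Within slide 1 all 3 IL-4 arrays were above PBS replicate 1. The difference there was 0.35 (95% confidence interval 0.07 to 0.63), with an adjusted p of 0.37 (limma with slide as a block). The 2 dimmer probes of Tfrc had 0.33 ± 0.10 and 0.19 ± 0.12, and 0.40 and 0.39 within slide 1. Slc11a2, or DMT1, which carries iron across membranes, had -0.25 ± 0.13 for its brightest probe and 0.45 ± 0.11 for a dimmer one. Within slide 1 these probes had -0.01 and 0.28. Ireb2, an RNA-binding regulator of ferritin and transferrin receptor messages, had -0.15 ± 0.11, and -0.0063 within slide 1.

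**Figure D5:**
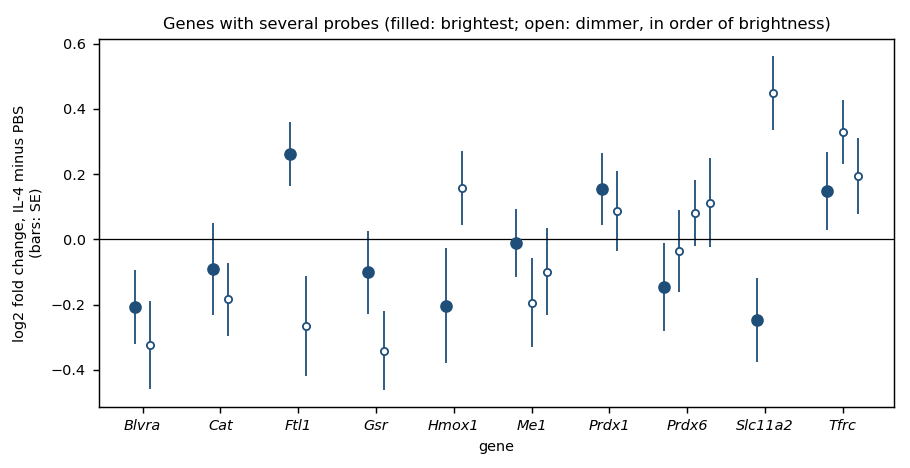
Log2 fold change between IL-4 and PBS with its SE (vertical axis) for every probe of the 10 listed genes that have several probes. The filled point is the brightest probe and open points are dimmer ones. The probes of Ftl1, Hmox1, Prdx6 and Slc11a2 lie on both sides of 0, whereas all 3 probes of Tfrc lie above it.

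Of the 83 other genes listed for the same pathways, 80 were tested, and 5 of them (6.25%) fell and 0 rose (limma), beside 2.54% and 0.807% of all genes. With slide as a block 0 were called. Their median log2 fold change was -0.09 over all arrays and 0.03 within slide 1. These lists too were chosen with earlier results known, so the counts only describe them. Msrb1 and Msrb2 encode reductases that repair oxidized methionine. Msrb1 had a log2 fold change of -0.85 ± 0.13 (adjusted p = 0.031, limma) and Msrb2 one of -0.68 ± 0.13 (adjusted p = 0.042). Abcc4, an exporter of the multidrug resistance family, had -0.63 ± 0.11 (adjusted p = 0.036), and Sesn1, a sestrin, had -0.57 ± 0.12 (adjusted p = 0.046). Ncoa4, the receptor that delivers ferritin to autophagy, had -0.53 ± 0.11 (adjusted p = 0.048). Within slide 1 the differences were -0.59 for Msrb1, -0.42 for Msrb2, -0.48 for Abcc4, -0.62 for Sesn1 and -0.45 for Ncoa4. Sesn2, another sestrin, lay on the other side of 0 and was not called. It had 0.66 ± 0.23 over all arrays (adjusted p = 0.097, limma) and 0.17 within slide 1.

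Of the 5 genes that fell, 3 (Msrb1, Msrb2 and Sesn1) belonged to the 13 tested genes listed under thioredoxin and superoxide, 1 to the 17 other NRF2 targets and glutathione enzymes and 1 to the 27 other iron and heme genes. None of the 10 partners and regulators of NRF2 was called. Among these, Sqstm1, the autophagy receptor p62 that binds KEAP1, had a log2 fold change of 0.51 ± 0.11 (adjusted p = 0.052) and 0.46 within slide 1. Mafk, a small MAF partner of NRF2, had 0.42 ± 0.12 and 0.32. Bach1, a repressor at the same DNA element, had -0.40 ± 0.13 and -0.22. None of the 13 other sources of NADPH was called, and the largest difference among them was in Nadk2, the mitochondrial NAD kinase, at -0.51 ± 0.11 (adjusted p = 0.052) and -0.31 within slide 1.

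The 2 log2 fold changes furthest above 0 in these lists were much smaller within slide 1. Ephx1, an epoxide hydrolase, had log2 signals of 2.54, 2.55 and 2.64 with IL-4 and 2.19, 1.11 and 0.86 with PBS. Its log2 fold change was 1.19 ± 0.30 over all arrays (adjusted p = 0.059) and 0.39 within slide 1. Aco1, the iron-sensing aconitase, had -2.24, -2.32 and -2.07 with IL-4 and -2.35, -4.30 and -3.81 with PBS, a log2 fold change of 1.28 ± 0.43 over all arrays (adjusted p = 0.087) and 0.14 within slide 1. In both genes PBS replicate 1 stood nearer to the IL-4 arrays than to the PBS arrays of the other slide. Not every rise was smaller within slide 1. Slc39a14, named for the largest difference upwards within slide 1 in these lists, had 0.51 there and 0.37 ± 0.12 over all arrays. The part of the slide in these differences was not tested beyond the comparison within slide 1.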

How the data were processed

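Scanner files of 6 single-colour arrays held spot intensity values, which per the file headers were background-subtracted within each array by the authors' scanner software (Agilent Feature Extraction 11.0.1.1). The deposited value table holds log2 values with the same 25th percentile (5.56), median (6.92) and 75th percentile (9.58) in all columns, as quantile normalization gives. How it was normalized is not stated in the sources used here. It may therefore not be an alternative separate from quantile normalization. From the intensities, control and outlier spots were left out, copies of a probe averaged, log2 taken and the 75th percentile of each array subtracted. Of 39429 probes, 35979 were well above background on all arrays of at least 1 group. Probes were named by accession through a RefSeq gene table (GRCm38.p6, 69.1% matched), and the brightest was used for each gene. The comparison of the groups used limma 3.58.1 (R 4.3.3) and Benjamini-Hochberg adjustment. Slides were read from scan records. The number of arrays limits the precision. The fits were tested on simulated data.

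The genes and lists were chosen with earlier results of these data known. Values per array were given for listed genes that were called or differed by at least 0.5 (log2), and for Nfe2l2, Keap1, Hmox1, Fth1 and Tfrc. Of other pathway genes those called and up to 6 of the largest differences in a list were eligible to be named. Alternatives varied scaling, background correction, dim-probe filter, probe choice, slide, replicate number, the deposited table and each array left out. The mean spot signal planned for normexp correction (offset 50) was replaced by the median spot signal, the column used here.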

Additional observations from a re-analysis of the deposited data

How the results depend on the processing

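The counts of calls, over all genes, the 40 genes and the 80 other pathway genes, were 997, 3 and 5. They became 2636, 4 and 10 with quantile normalization, 1733, 3 and 7 with median scaling, 523, 1 and 2 when scaled on probes that all arrays measured above background, 4092, 10 and 17 with normexp correction, 3808, 7 and 13 when all 6 arrays had to be above background, and 2288, 4 and 11 in the deposited table. With no filter on dim probes they were 15, 0 and 0, with slide as a block 9, 0 and 0, and on slide 1 alone 1, 0 and 0. At an unadjusted p under 0.05 these settings gave 9653, 3037 and 2851 genes (limma). Leaving out 1 array gave 0 to 12654, 0 to 18 and 0 to 33, the highest without PBS replicate 1 and at most 3, 0 and 0 without any other array. The share of calls that were higher was 24.1%, but 49.5% with normexp correction, 48.1% with all 6 arrays above background and 45.9% without PBS replicate 1. With slide as a block, normexp correction called 1 of the 40 genes, Txnrd2 (adjusted p = 0.0064), beside 795 genes, or 2.67%, over the whole array.

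Whether replicate numbers pair the samples was not settled. Deviations of same-numbered arrays correlated at 0.083, -0.016 and 0.296. Replicates 1 and 3 of each group correlated best with their own number, and replicate 2 did not. The replicate block gave 3770, 3 and 13 calls, with 47.9% higher.

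The median of the 40 genes was -0.01 (-0.0148) with slide as a block and on slide 1 alone, and -0.27 to -0.11 with 1 array left out. Of the 40 genes 25 kept their sign in all 17 alternatives, or for Nqo1 in the 16 in which it was tested. With slide as a block and on slide 1 alone the log2 fold change turned to 0.19 for Hmox1, 0.0174 for Txn1, 0.0917 for Txn2, 0.13 for Txnrd1, 0.11 for Prdx3, 0.10 for Prdx6, 0.12 for Cat, 0.0405 for Sod1, 0.13 for Tkt and 0.0923 for Me1. Taldo1 turned to -0.15 with quantile normalization, -0.0095 with median scaling, -0.0403 with normexp correction and -0.13 in the deposited table. Ftl1 turned to -0.0007 with quantile normalization and -0.0026 with the mean of probes, which also turned Prdx6 to 0.003 and Slc11a2 to 0.10. Scaling on probes well above background turned Slc7a11 to 0.0186 and Me1 to 0.0335, and the deposited table turned Slc7a11 to 0.0193. With 1 array left out, values ran from -0.0413 to 0.0593 for Taldo1, -0.0911 to 0.0393 for Slc7a11, -0.0644 to 0.0547 for Me1, -0.0102 to 0.0799 for Prdx4 and -0.24 to 0.0073 for Txnrd1. The cause of these changes was not tested.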

Other observations

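Txnrd2 encodes a selenoprotein, and the genes for selenoproteins, which carry selenium as selenocysteine and include many redox enzymes, were listed as a group after the values were seen. All 24 were tested, and 3 fell (limma, adjusted p under 0.05) while 0 rose, beside 2.54% and 0.807% of all genes. These 3 include Txnrd2, which prompted the list, and Msrb1, already reported among the other pathway genes. Of the 20 genes outside the 40 described above 2 fell, Msrb1 being 1 of them. With values known when the list was made, these counts are a description and not a test of the group. Selenop, which carries selenium between cells, fell 1.98-fold, by 0.98 ± 0.13 on the log2 scale (adjusted p = 0.026). Its log2 signal was 1.76, 1.68 and 1.73 with IL-4 and 2.46, 2.89 and 2.78 with PBS, so that the groups did not overlap, and within slide 1 the difference was -0.74 (adjusted p = 0.13). The other genes that fell were Msrb1 and Txnrd2. Of the 24 genes 16 had log2 fold changes below 0 and 8 above, beside 56.5% of all tested genes below 0. Their median was -0.22 over all arrays and -0.06 within slide 1, beside -0.05 and 0.01 for all tested genes. With slide as a block 0 were called. Selenon, a protein of the endoplasmic reticulum, had the highest value at 0.63 ± 0.18 (adjusted p = 0.066), and 0.25 within slide 1. Txnrd3, the third thioredoxin reductase, had 0.19 ± 0.11.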
